A study of Mus musculus with 2 samples.

Results

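The coding spans of mouse chromosome 15 are described here one by one along the chromosome. In the deposited table of DNase I hypersensitivity sequencing (DHS-seq), rows on chromosome 15 were taken, the transcript number was removed from each name, and the transcript covering most windows stood for its gene. This gave 792 genes of the 22605 in the table, against 20856 genes on the other autosomes. The chromosome was chosen by its raised median signal in these libraries, so its height is given as a description and with no test.

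The cells were M1, a mouse myeloid progenitor line labelled as bone-marrow and used at passages 15 to 18. One library came from untreated M1 cells. The other came from M1 cells grown for 4 to 5 days with interleukin-6 (IL-6), a cytokine that makes this line differentiate. Each group was thus 1 library of 1 cell line, without replicates, so no p-value is given. Intervals of a median reflect the spread over genes, which are no replicates, and intervals of a library ratio cover counting error only. Marker genes were looked up among the autosomal genes of the table. Of 11 myeloid markers 10 were found, with a median signal of 12.9 reads per window in M1 cells. Of 12 markers of other lineages 11 were found, with a median of 8.71. With IL-6 the same medians were 12.1 and 11.4, so the raw medians separated the lineages weakly. At the GC content explained below the medians were 1.49 and 0.83 in M1 cells, and 1.09 and 1.00 with IL-6. Above 1 there were 7 of the 10 myeloid and 3 of the 11 other markers in M1 cells, and 6 of each with IL-6. Openness over a coding span is not a transcript level.

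DNase I cuts DNA where nucleosomes are displaced, and a pair of nearby cuts releases a small fragment that can be sequenced. Promoters and enhancers are the usual hypersensitive sites, while long coding spans consist mostly of introns and carry a low, diffuse signal. The signal printed here is the mean number of reads over the 700-bp windows that a coding span touches, from the start codon to the stop codon with introns, and each read of the IL-6 library counts as 1.038 in the deposited values. Mouse chromosome 15 has its centromere at the low-coordinate end. It carries several cadherin genes and receptors of the IL-6 family near that end, the proto-oncogene *Myc* in the middle, and the *Ly6*, *Cyp2d*, keratin and *Hoxc* clusters farther out.

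4 stretches of sequence show what such windows look like. They were taken from windows of 700 bp whose own reads could be recovered because transcripts of a gene ended in neighbouring windows, 27 windows below 50 Mb and 129 above. They are the window with most M1 reads on each side of 50 Mb, and a window near the M1 median of each side. Sequences are of build NCBIM37, plus strand, 5′ to 3′, and capitals mark CpG dinucleotides.
Brix1/Rad1 start, chr15:10415325-10415624: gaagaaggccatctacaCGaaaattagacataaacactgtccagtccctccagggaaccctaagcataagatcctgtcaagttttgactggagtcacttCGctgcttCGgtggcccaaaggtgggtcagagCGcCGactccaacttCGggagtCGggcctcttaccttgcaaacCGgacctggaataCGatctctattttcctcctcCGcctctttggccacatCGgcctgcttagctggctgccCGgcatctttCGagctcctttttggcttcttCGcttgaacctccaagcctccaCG
Myo10 interior, chr15:25705601-25705900: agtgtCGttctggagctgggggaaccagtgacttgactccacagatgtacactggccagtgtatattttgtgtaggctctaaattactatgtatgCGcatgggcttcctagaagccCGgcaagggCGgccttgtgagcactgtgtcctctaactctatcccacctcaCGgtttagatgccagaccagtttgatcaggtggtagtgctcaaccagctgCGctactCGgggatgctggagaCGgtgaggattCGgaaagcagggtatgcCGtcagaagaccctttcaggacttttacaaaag
Atf4 start, chr15:80086111-80086300: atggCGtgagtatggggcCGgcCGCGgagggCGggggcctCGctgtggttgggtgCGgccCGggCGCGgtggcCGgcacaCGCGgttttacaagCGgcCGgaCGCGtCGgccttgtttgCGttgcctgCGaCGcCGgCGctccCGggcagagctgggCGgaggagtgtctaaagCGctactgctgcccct
Eef1d interior, chr15:75726201-75726500: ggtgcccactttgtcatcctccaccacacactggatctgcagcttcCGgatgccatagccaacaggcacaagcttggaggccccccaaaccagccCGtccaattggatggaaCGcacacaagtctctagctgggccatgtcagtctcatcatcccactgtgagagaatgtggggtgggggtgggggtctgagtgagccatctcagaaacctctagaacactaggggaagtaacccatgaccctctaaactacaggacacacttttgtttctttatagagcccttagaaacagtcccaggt
The first stretch comes from the window in which the divergent genes *Brix1*, a ribosome assembly factor, and *Rad1*, a DNA damage checkpoint clamp subunit, begin. These starts were placed by window, and its label names them for the window and not for the stretch. Of its 300 bases 135 are coding and 165 intronic. Its window held 454 reads in M1 cells and 80 in IL-6-treated cells. The third stretch follows the start codon of *Atf4*, a transcription factor of the stress response, with 5 coding and 185 intronic bases and 26 CpG. Its window held 706 reads in M1 cells and 136 with IL-6. The stretch of *Myo10*, an unconventional myosin, had 125 coding bases in a window with 5 and 14 reads. The stretch of *Eef1d*, a translation elongation factor subunit, had 156 coding bases in a window with 12 and 14 reads. The start windows were picked for their reads, so their height over the interior ones is no comparison of starts with interiors. The recovered windows had a median of 6 reads below 50 Mb and 12 reads above it in M1 cells. With IL-6 the medians were 6.23 and 13.5 scaled reads. The *Myo10* window, with 14.5 scaled reads, was thus near its side's median in M1 cells only.

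Over all 792 genes the median signal was 14.6 reads per window (95% interval of the median 13.8 to 15.3) in M1 cells and 14.8 (14.1 to 15.5) in IL-6-treated cells. The genes of the other autosomes had medians of 7.92 and 8.31. Relative to those medians chromosome 15 stood at 1.85 in M1 cells and at 1.78 with IL-6, the highest of the 19 autosomes in both libraries. The relative level hardly moved between the libraries, with a quotient of 0.966. In all 748 of the 792 genes had more than 21 reads, summed over the span, in at least 1 library. The study applied that count to single sites, so passing it over a whole span is no site call. The spans together touched 45507 windows.

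This height was not even along the chromosome. When genes were placed by their start into 10-Mb bins, the 5 bins below 50 Mb had medians of 6.06, 6.13, 5.50, 6.96 and 4.54 reads per window in M1 cells. The 6 bins from 50 Mb on had 10.6, 7.28, 21.3, 17.2, 15.1 and 16.3. Every bin below 50 Mb lay under the median of the other autosomes, and every bin above it except the one at 60 to 70 Mb lay over it. In IL-6-treated cells the 5 bins had 5.82, 6.65, 6.23, 6.35 and 4.15, and the 6 bins 10.6, 9.48, 20.2, 18.4, 15.1 and 16.5. All 5 proximal bins lay again below the median of the other autosomes, and here all 6 distal bins exceeded it. Bins over that median thus numbered 5 of 11 in M1 cells, against 36.3% of the 245 bins of other autosomes, and 6 of 11 with IL-6, against 36.7%. The highest bin, 70 to 80 Mb with 191 genes, was 4.70 times the lowest, 40 to 50 Mb with 19 genes, in M1 cells and 4.86 times in IL-6-treated cells. This quotient depended on where bins were placed, with 11.4 and 7.28 when they were shifted by 5 Mb, and was 2.05 and 1.65 at the GC content explained below.

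**Figure D1:**
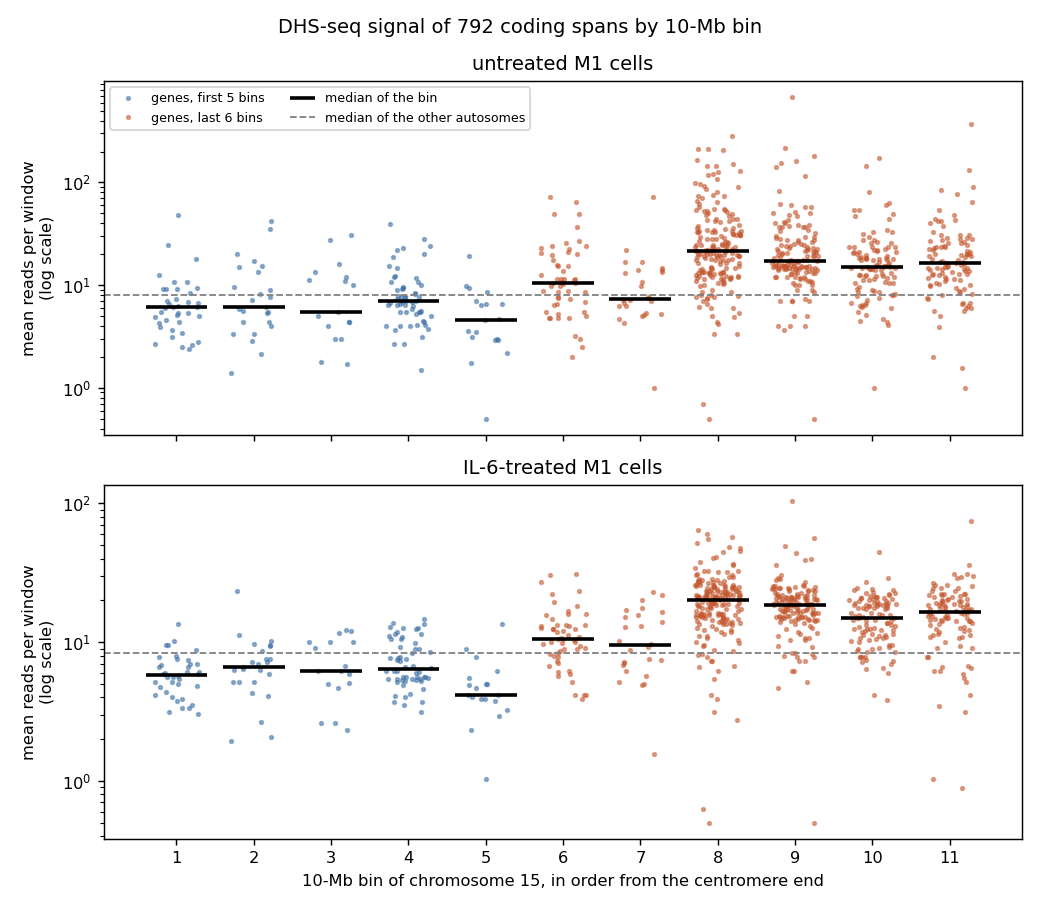
Mean reads per 700-bp window (log axis) of each of the 792 genes, by 10-Mb bin in order from the centromere end, in M1 cells (top) and IL-6-treated cells (bottom), with values under 0.5 drawn at 0.5. Bars are bin medians and the dashed line is the median of the other autosomes (7.92 and 8.31). The first 5 bars lie below the line in both libraries, and the last 6 lie above it except bin 7 in M1 cells (7.28).

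The step was used to cut the chromosome at 50 Mb into 157 proximal and 635 distal genes. As the cut was placed after the bins had been seen, the contrast is descriptive. The proximal genes had medians of 6.34 in M1 cells and 6.08 with IL-6. The distal genes had 16.7 and 16.9, which is 2.63 and 2.77 times as high. The distal spans were also shorter, with a median of 14 windows against 47. The proximal stretch was therefore below the rest of the genome in this raw measure, and the raised level of the chromosome came from the distal genes.

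The genes next to the cut on either side differed, though values overlapped a little farther away. *Csmd3*, a very large gene known from brain, is the last proximal gene (chr15:47413997-48623450) and covers 1729 windows. Its mean was 1.73 reads per window (SD over windows 2.29) in M1 cells and 2.33 (SD 2.51) with IL-6. *Trps1*, a GATA-type transcriptional repressor, is the first distal gene (chr15:50492221-50678486) and had 7.61 in M1 cells and 5.69 with IL-6 over 267 windows. *Eif3h*, a translation initiation factor subunit that follows it, had 9.70 and 10.0 over 113 windows. *Rad21*, the cohesin subunit next to them, had 7.54 and 8.31. All of these distal neighbours were above *Csmd3* in both libraries, and no gene in the table starts between 48.62 and 50.49 Mb. *Csmd3* was the lowest span of at least 10 windows in its bin in M1 cells. Its GC content was 35.2%, against 36.3% for *Trps1* and 41.1% for *Eif3h*. Farther from the cut, the proximal *Nudcd1* had 8.54 in M1 cells and 5.02 with IL-6, and the distal *Colec10* 3.23 and 4.18.

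Base composition moved with the signal and had to be set beside it. On the other autosomes the signal rose with the GC content of the windows, with a rank correlation across 20856 genes of 0.62 in M1 cells and 0.70 with IL-6 (genes share 1 library and are no replicates). On chromosome 15 the median GC content was 42.0% over the proximal genes and 50.1% over the distal ones, and it was highest, 52.6%, in the bin at 70 to 80 Mb that also had the highest signal. Genes were therefore sorted into 5 classes of GC content that held equal numbers of genes of the other autosomes. Within each class the distal genes had 1.41 to 1.72 times the median of the other autosomes in M1 cells and 1.46 to 1.69 times with IL-6. The proximal genes had 0.97 to 1.26 and 0.98 to 1.10 times in the first 4 classes. In the class richest in GC only 5 proximal genes remained, at 0.53 and 0.46. At equal GC content the distal genes thus stayed above the other autosomes in every class, by less than in the raw medians.

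**Figure D2:**
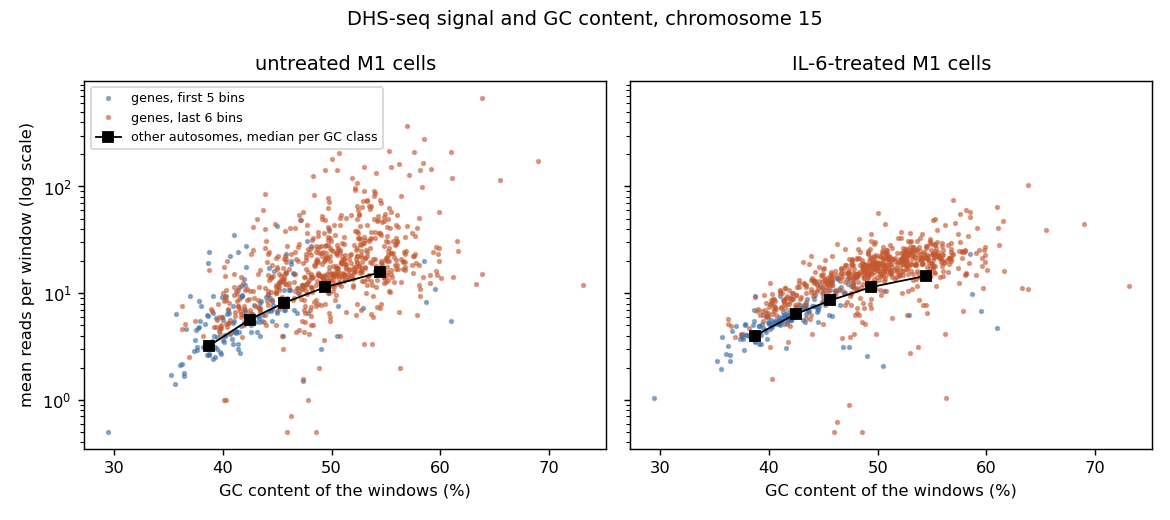
Mean reads per window (log axis) against GC content in percent for the 157 proximal genes (blue) and the 635 distal genes (orange) of chromosome 15, with values under 0.5 drawn at 0.5. Black squares are medians of the other autosomes in 5 classes of GC content. Blue points follow the squares and orange points lie mostly above them, at 1.46 to 1.69 times the squares in median with IL-6.

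To follow this along the chromosome, each gene was divided by the median of the 501 genes of the other autosomes nearest to it in GC content, a measure added after the data had been seen and called the level at its GC content below. On this scale a gene like its counterparts elsewhere has the value 1. The 5 proximal bins had medians of 1.14, 1.10, 0.91, 1.15 and 1.09 in M1 cells, and the 6 distal bins 1.87, 1.32, 1.51, 1.48, 1.47 and 1.30. With IL-6 the proximal bins had 1.00, 1.03, 1.06, 1.05 and 1.15, and the distal bins 1.55, 1.65, 1.5, 1.52, 1.43 and 1.41. The sets did not overlap in either library, and within each set the IL-6 bins were close to one another. The tall raw peak at 70 to 80 Mb was gone on this scale. Over genes the medians were 1.10 proximal and 1.47 distal in M1 cells, and 1.05 and 1.49 with IL-6. Of 635 distal genes 510 were over 1 in M1 cells (other autosomes 49.6%) and 563 with IL-6 (49.7%). Of the 157 proximal genes 91 and 96 were.

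Shorter bins placed the change and showed interruptions. In 5-Mb bins with IL-6, all 7 proximal bins with at least 5 genes had medians of 0.99 to 1.15, and the bin at 50 to 55 Mb had 1.39. *Csmd3* was at 1.04 in M1 cells and 0.97 with IL-6, and *Trps1* beyond the cut at 3.59 and 1.94. The bin at 55 to 60 Mb was the highest, with 2.05 in M1 cells and 1.82 with IL-6 over 33 genes. The next one, at 60 to 65 Mb, fell back to 1.03 and 1.08. This bin has only 11 genes, and several of them are *Gsdmc* paralogs, near-identical genes of the gasdermin family among which reads cannot be placed with certainty. *Myc*, a transcription factor of cell growth in the same bin, had 5.17 in M1 cells and 1.69 with IL-6. *Adcy8*, an adenylyl cyclase of neurons that is also there, had 1.15 and 1.44. All 8 later bins lay between 1.41 and 1.67 with IL-6. In M1 cells the bin at 70 to 75 Mb fell back as well, to 1.16, which is under the 1.17 of the proximal bin at 5 to 10 Mb, so at this width the stretches overlapped in M1 cells.

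Long spans hold most windows and the smallest counting error, so they were taken separately. Spans of at least 50 windows numbered 76 in the proximal and 118 in the distal stretch. With IL-6 their level at the GC content had a median of 1.05 proximally and 1.55 distally. Of the 118 distal long spans 114 were above 1.2, and of the 76 proximal ones 10, against 25.3% of the 5090 long spans on other autosomes. In M1 cells 95 and 23 were above 1.2, against 36.0%. The separation was thus cleaner with IL-6, where the spread among long spans was narrower. The 4 distal exceptions with IL-6 were *Colec10*, a secreted lectin, at 1.03, *1700030F18Rik* at 1.11, *Bai1*, an adhesion receptor, at 1.12 and *Atf7*, a transcription factor, at 1.19. The highest proximal values were 1.43 for *Nudcd1* and 1.42 for *Nipbl*, the cohesin loader. *Abcd2*, a peroxisomal transporter, was the highest distal one, with 4.72 in M1 cells and 2.23 with IL-6, and *Ranbp3l* was the lowest proximal one, with 0.57 and 0.52.

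**Figure D3:**
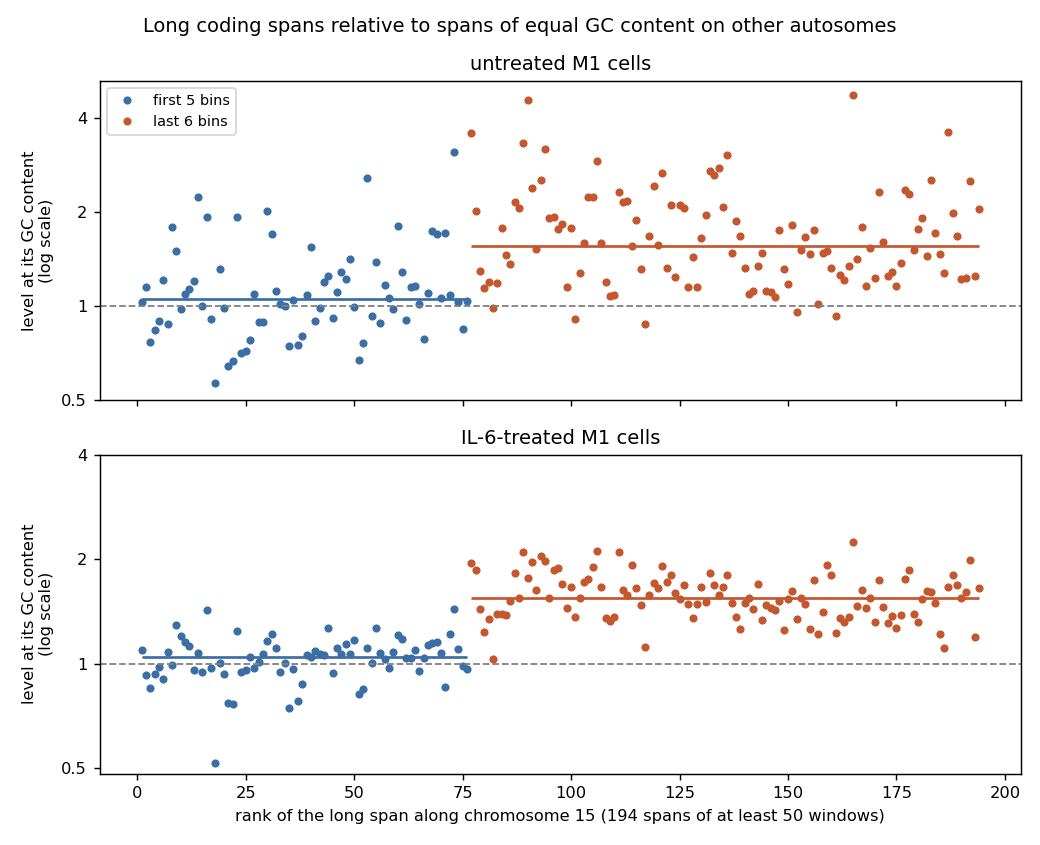
Level at the GC content (log axis, 1 = median of equal-GC genes on other autosomes) of the 194 long spans of chromosome 15 in their order along it, in M1 cells (top) and IL-6-treated cells (bottom). Lines are medians of the 76 proximal (blue) and 118 distal (orange) spans. With IL-6 the lines lie at 1.05 and 1.55, drawn flat on each side of a cut placed after the bins had been seen. Of the 118 distal spans 114 lie above 1.2.

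The same was seen when single genes were set side by side without any scale. Of 30 distal genes with at least 200 windows, 18 had a proximal gene of at least 200 windows within 0.5 percentage points of GC content, drawn from 9 proximal genes. The distal gene was higher in 17 of these 18 pairs in M1 cells and in 18 with IL-6, with median ratios of 1.27 and 1.5. The pairs that share a proximal gene are not independent. *Trappc9*, a vesicle transport factor, and *Myo10* had GC contents of 46.9% and 47.0%. *Myo10* had 10.1 reads per window in each library, and *Trappc9* had 1.98 times as many in M1 cells and 1.54 times with IL-6. *Dip2b* had 16.8 and 16.0 against 8.98 and 9.62 for *Pdzd2*, at 46.1% and 45.9% GC. The exception was *Nell2*, a secreted neural protein, with 6.30 against 6.64 for *Wdr70* in M1 cells, though with IL-6 it had 7.85 against 5.88.

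Other chromosomes also had raised bins, so the distal level was not particular to chromosome 15. Of the 245 bins of other autosomes with at least 5 genes, 20 (8.16%) were as high at their GC content as the lowest distal bin in both libraries, on 7 chromosomes, 8 of them on chromosome 9. Over whole chromosomes chromosome 15 ranked second on this scale, with 1.37 in M1 cells and 1.41 with IL-6, behind chromosome 9 with 1.39 and 1.45. Chromosome 12 had bins of 1.24 to 1.49 with IL-6, and a wider range of 0.88 to 1.93 in M1 cells. Chromosome 8 had a step like that of chromosome 15: its first 7 bins had 0.86 to 1.04 with IL-6 and the next 6 had 1.27 to 1.42, with 1.03 in its last bin. In M1 cells these were 0.80 to 1.00, 1.27 to 1.60 and 0.57. Since these raised stretches belong to the reference genes, they can lower the level printed for the distal genes, by an amount that was not calculated. Copy number of the chromosomes was not analysed here, and its part in the step was not tested.

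**Figure D4:**
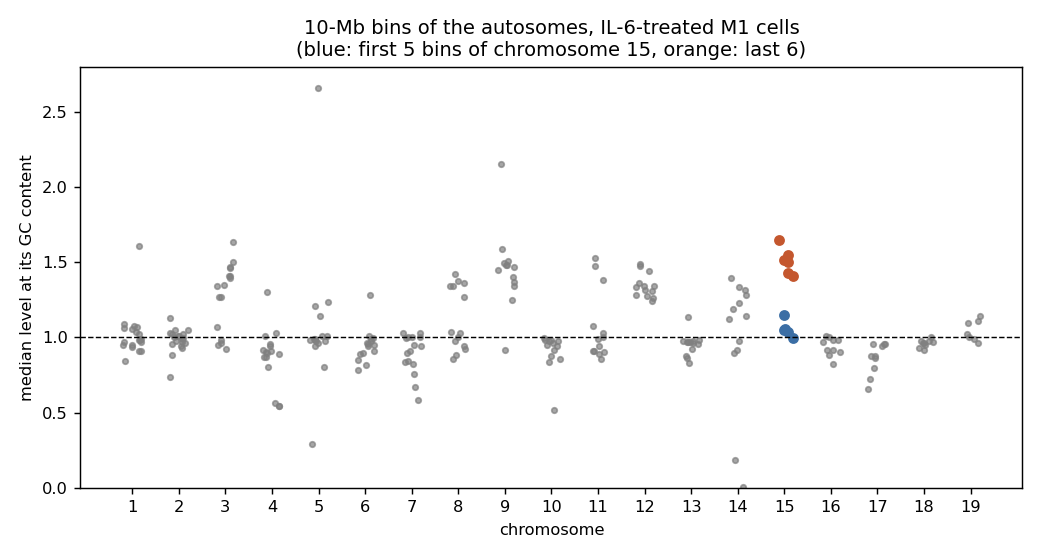
Median level at the GC content of each 10-Mb bin with at least 5 genes in IL-6-treated cells, by autosome. The 5 proximal bins of chromosome 15 (blue, 1.00 to 1.15) lie among most other bins and the 6 distal bins (orange, 1.41 to 1.65) lie above the line at 1, as do the bins of chromosome 12 (1.24 to 1.49).

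The roles of the genes were followed next, by lists of known genes on the chromosome, and a value of 1.2 at the GC content served as a mark. Of all 635 distal genes 66.5% were above it in M1 cells and 78.6% with IL-6, of the 157 proximal genes 43.3% and 22.9%, and of the genes of other autosomes 38.3% and 29.7%. A list near these shares shows the stretch it lies in and nothing of its own. The broadly used genes, such as ribosomal proteins, initiation factors and tubulins, had 7 members in the proximal and 19 in the distal stretch. In M1 cells their median was 9.39 reads per window proximally and 36.9 distally. *Ndufa6*, a subunit of respiratory complex I, was the highest with 142 (SD 311) in M1 cells and 36.2 with IL-6. *Stk3*, a kinase of the Hippo pathway, was the lowest with 4.47 and 4.57. All 19 distal members exceeded 1.2 at their GC content in M1 cells and 18 with IL-6, where *Tomm22*, an import receptor of mitochondria, had 0.95. Proximally 5 of 7 exceeded 1.2 in M1 cells and 1 with IL-6, *Eif3e* with 1.52.

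Genes known from tissues other than blood showed the step too. They comprised 4 proximal and 14 distal members, among them channels, synaptic genes and secreted proteins. With IL-6 all 14 distal members were above 1.2 at their GC content, from 1.27 for *Nell2* to 2.17 for *Sstr3*, a somatostatin receptor. In the proximal stretch 1 of 4 was above 1.2, *Trhr*, the thyrotropin-releasing hormone receptor, with 1.22. In M1 cells 10 of 14 and 1 of 4 were. In M1 cells the distal members had a median of 1.24 at their GC content, against 3.73 for the distal broadly used genes, and with IL-6 1.54 against 1.81. The 5 cadherin genes, cell adhesion molecules, lie below 50 Mb, and their raw values of 1.40 (*Cdh9*) to 5.56 (*Cdh6*) were all under the proximal median of 6.34. With IL-6 they had 1.94 to 6.36 reads per window and at most 1.00 at their GC content.

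Among 16 blood cell and leukocyte genes, the 14 distal ones had 12.9 to 90.8 reads per window in M1 cells. *Rac2*, a GTPase of the phagocyte oxidase, was the highest with 90.8 in M1 cells and 32.6 with IL-6. *Ncf4*, another oxidase subunit, had 54.9 and 25.7. The proximal pair, *Dab2*, an endocytic adaptor, and *Baalc*, a gene of progenitor cells, had 4.23 and 6.58 in M1 cells and 6.61 and 9.21 with IL-6. At their GC content 12 of the 14 distal genes were above 1.2 in M1 cells and 11 with IL-6, and neither proximal gene was in either library.

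Of the cytokine receptors 5 are proximal and 4 distal. The IL-6 family receptors *Osmr* (oncostatin M receptor) and *Lifr* (leukaemia inhibitory factor receptor) had 5.33 and 9.11 reads per window in M1 cells and 7.49 and 9.58 with IL-6. The ratio of the libraries was 1.40 (95% interval 1.22 to 1.62) for *Osmr* and 1.05 (0.92 to 1.19) for *Lifr*, both under the 2-fold used as the call. *Csf2rb*, the shared chain of the receptors for IL-3, IL-5 and GM-CSF, had 12.3 and 13.5, and *Prlr*, the prolactin receptor, 2.84 and 4.31. *Csf2rb* and its paralog *Csf2rb2* were at 0.97 and 0.86 at their GC content in M1 cells and at 1.09 and 1.07 with IL-6, where all 4 distal receptors were above 1. *Tnfrsf13c*, the BAFF receptor, had 57.7 and 27.3 over 3 windows.

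The clusters of paralogs lie in the distal stretch, and the counting of reads with more than 1 matching copy is not given in the sources used here, so their values are uncertain. The 23 keratin genes in the table, structural proteins of epithelia, had medians of 14.2 and 19.7 reads per window, and 9 were above 1.2 at their GC content in M1 cells and 18 with IL-6. *Krt80* was the highest in M1 cells with 24.1 and had 22.4 with IL-6, where *Krt5* was the highest with 26.7. Of the 15 *Ly6* family genes, small surface proteins, 7 and 9 were above 1.2. All 8 *Cyp2d* genes, enzymes of drug oxidation in liver, were above 1.2 with IL-6 and 6 in M1 cells.

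The *Hoxc* cluster, homeobox genes of body patterning, was the clearest gap. Its 9 genes had medians of 7.50 reads per window in M1 cells and 7.79 with IL-6. At their GC content the medians were 0.48 and 0.51, and *Hoxc10* alone exceeded 1, with 1.83 and 1.12. Of the 635 distal genes 22 were under 0.6 at their GC content in both libraries, and 6 of them were *Hoxc* genes, 5 were *Apol* genes and 8 were unnamed *Gm* models. *Zbed4* had 0 reads in M1 cells, which allows up to 3 reads over its 6 windows, and 1 read with IL-6. *Apol10a*, an apolipoprotein L, had 1 read in each library over 12 windows. Such low genes made up 3.46% of the distal genes, 4.46% of the proximal genes and 11.6% of the genes of other autosomes.

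Of 13 nuclear regulators 11 are distal. *Atf4* had 215 reads per window in M1 cells and 49.1 with IL-6 (858 and 189 reads over 4 windows), and *Zfpm2*, a GATA cofactor, had 2.90 and 3.74 over 641 windows. *Klf10*, a zinc finger factor of TGF-beta signalling, is the other proximal member, with 39.6 and 12.9. All 11 distal regulators were above 1 at their GC content in M1 cells, and 10 with IL-6, where *Cbx5*, the heterochromatin protein HP1 alpha, had 0.87. Both proximal regulators were above 1 in each library too, so the count over 1 did not separate the stretches in this list.

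Between the libraries the distal stretch did not shift as a whole. The median log2 ratio of IL-6-treated over untreated cells was -0.04 over the distal and 0.02 over the proximal genes with more than 21 reads. A ratio of at least 2-fold was called on scaled reads with 0.5 reads added. By that rule 105 of 748 genes were lower with IL-6, against 13.2% of the autosomal genes, and 8 were higher, against 1.68%. This is 14.0% and 1.07%, close to the background for the lower calls. Lower calls made up 93 of 605 distal genes and 12 of 143 proximal genes, and the bin at 70 to 80 Mb held 38 of the 105 among its 182 genes.

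**Figure D5:**
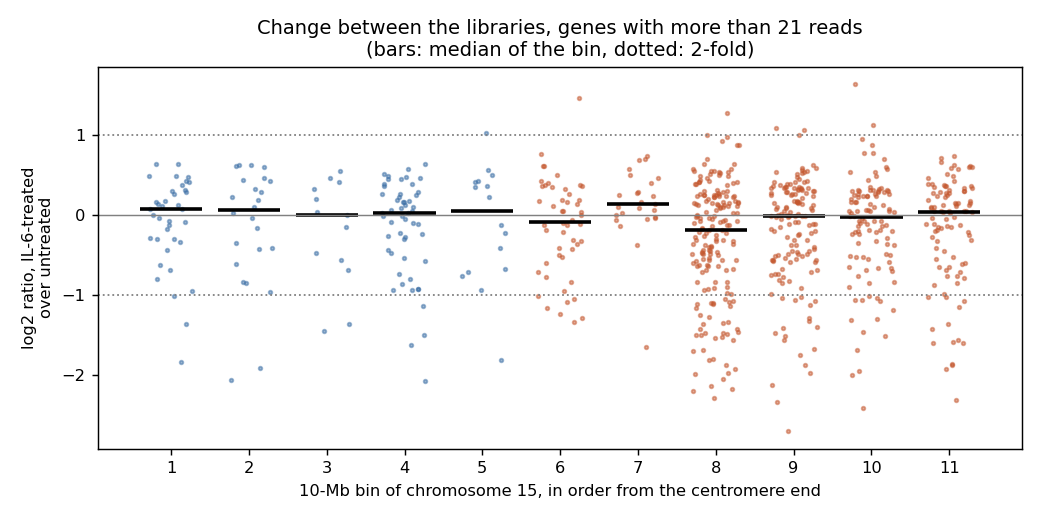
Log2 ratio of IL-6-treated over untreated cells for each of the 748 genes with more than 21 reads, by 10-Mb bin. Bars are bin medians (-0.18 to 0.14) and dotted lines mark 2-fold. The medians lie near 0 in all 11 bins, and points below the lower line (105) outnumber those above the upper one (8).

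By list, of the 26 broadly used genes 11 were at least 2-fold lower, all of them distal, against 15.4% of the distal genes and 13.2% of the autosomal genes. Of the 16 blood cell genes 4 were, *Myc*, *Rac2*, *Trib1* and *Ncf4*. *Myc* (chr15:61817477-61821463) had 72.4 reads per window (SD 68.8) in M1 cells and 23.0 (SD 16.5) with IL-6. This is 507 and 155 reads over 7 windows, a ratio of 0.32 (0.26 to 0.38). *Atf4* had a ratio of 0.23 (0.19 to 0.27). Of 4 regulators that were lower, *Klf10* was the proximal one, with 0.33 (0.27 to 0.39). The background shares were not matched for signal in M1 cells, where the distal broadly used genes had a median of 36.9 reads per window. On the other autosomes the upper quartile of the signal went from 14.0 to 12.4 with IL-6, and the lower one from 4.29 to 5.16. Whether these falls belong to the lists or to strong spans in general was not tested.

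The largest fall among genes with at least 100 reads was that of *C730034F03Rik*, a single window with 678 reads in M1 cells and 100 with IL-6 (ratio 0.15, 0.12 to 0.19). *Chkb*, a choline kinase whose coding span meets it at that window, had 768 and 146 reads over 5 windows, most of them the same reads. *Rhebl1*, a small GTPase, had 720 and 130. The largest rises were small beside these falls. *Gm5062* had 49 and 95 reads (ratio 2.00, 1.41 to 2.90), *Arc*, an immediate early gene of neurons, 43 and 82, and *Cyp11b1*, an enzyme of corticosteroid synthesis, 117 and 214.

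Each bin held spread around its median. The highest span of at least 10 windows in the bins below 50 Mb ranged in M1 cells from *Eny2*, with 19.4, to *6030458C11Rik*, with 42.5. *AW549877* (24.4), *Fam105a* (30.9) and *Klf10* lay between them. The highest in the distal bins ranged from *Sla*, an adaptor of lymphocyte receptor signalling, with 22.2, to *Ankrd54* with 119. *Derl1*, an endoplasmic reticulum degradation factor, had 49.6, *Tuba1c*, a tubulin, 63.2, *Myg1* 77.6 and *Tef*, a circadian transcription factor, 82.4. With IL-6 these distal genes had 17.2 (*Sla*) to 32.6 (*Ankrd54*), and the proximal ones 5.47 (*Eny2*) to 12.9 (*Klf10*). These genes were picked by their M1 value. Over all spans the highest of a bin with IL-6 was 23.5 at 10 to 20 Mb and 23.0 at 60 to 70 Mb, so these bin maxima overlapped. In M1 cells the maxima overlapped for spans of at least 10 windows, with *6030458C11Rik* above *Sla*. Over all spans they did not in M1 cells, with at most 48.7 proximally, at 0 to 10 Mb, and at least 71.7 distally, at 50 to 60 Mb.

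The lowest spans of at least 10 windows in each bin were less clearly apart in M1 cells, and shorter spans reached lower values in most bins. Below 50 Mb they were *Ugt3a1*, a glycosyltransferase, with 2.41, *Cdh9* with 1.40, *Cdh12* with 1.69, *Pgcp* with 2.68 and *Csmd3*. In the distal bins *Slc22a22* had 2.52, *Smgc* 4.12, *Gtsf1* 3.86, *Smc1b*, a meiotic cohesin subunit, 3.96 and *Hhla1* 4.26, while *Apol10a* was nearly empty. The largest spans of the chromosome after *Csmd3* are both proximal. *Ctnnd2*, a neural catenin with 1221 windows, had 5.26 and 6.02 reads per window, and *Vps13b*, a lipid transfer protein with 798 windows, 3.96 and 4.20, which is 0.97 to 1.11 times the median at their GC content.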

How the data were processed

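DNase I digested nuclei of M1 and IL-6-treated M1 cells gave small fragments that were sequenced as single reads. Per the methods, the authors removed adaptors and poor bases, used BWA for alignment to build NCBIM37, and viewed the sites in Seqmonk. The deposited signal is the mean and SD of reads over the 700-bp windows touched by each transcript's coding span. Multiplying the mean by the windows gave whole reads (tolerance 0.05) in 100% of rows, where 1 read was worth 1.0 in the M1 and 1.038 in the IL-6 library. How the authors treated duplicate and multiply matching reads is not given in the sources used here. Reads over chromosome 15 spans summed to 513111 and 441685, with overlapping spans counted repeatedly. Of the 1913 rows, 99.9% matched GENCODE coding spans.

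From these values, medians over genes were given exact 95% order-statistic intervals, and library ratios exact Clopper-Pearson intervals, with pandas 2.3.3 and scipy 1.17.1. GC content was read from NCBIM37. The calculations were tested on simulated data. With 1 library per group nothing was tested. The members, gene lists and comparisons were chosen with earlier results of these data known, and the 50-Mb cut, the long spans, the gene pairs and the level at the GC content after the data had been seen. Named genes were the highest and lowest spans of each bin and list, the largest changes and the longest spans, plus *Myc*, *Rad21*, *Csf2rb*, *Osmr* and *Lifr*; others named, including the neighbours of the cut and the exceptions, were chosen after their values were seen. Bin width, span length, scaling, statistic, reference genes, threshold and fold were varied.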

Additional observations from a re-analysis of the deposited data

How the results depend on the processing

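Of 104 alternative values over 11 results, 77 stayed near the value reported. Near meant within 1.5 times for counts and shares of bins, and within the interval over genes for the rest. Those intervals are wide where a bin holds few genes, as with 2.76 to 8.30 for the highest over the lowest bin in M1 cells. The chromosome stayed above the other autosomes in 16 of 16 alternatives and the distal genes above the proximal ones in 22 of 22. As the chromosome was chosen for its height and the cut placed after the bins were seen, these counts are no independent support. The causes of the shifts were not tested. The relative level was 1.64 with IL-6 for spans of at least 10 windows, 2.11 in M1 cells and 2.06 with IL-6 for at most 10 windows, 1.61 with IL-6 by the lower quartile, 1.45 and 1.33 by reads summed over windows, and 1.37 and 1.41 at the GC content. The quotient of the libraries was 0.885 by the lower quartile, 0.918 by summed reads and 1.03 at the GC content. The highest over the lowest bin was 3.37 with IL-6 for at most 10 windows, 3.12 with IL-6 in 20-Mb bins, 11.4 and 7.28 in bins shifted by 5 Mb, and 2.05 and 1.65 at the GC content. Bins over the other autosomes rose from 45.5% to 72.7% in M1 cells by the lower quartile, and to 90.9% in each library at the GC content (from 54.5% with IL-6). Distal over proximal was 1.33 in M1 cells (1.63 for spans of at least 50 windows) and 1.43 with IL-6 (1.31 by the lower quartile). Higher calls numbered 4 with 5 reads added, 4 with more than 50 reads, 17 with no threshold and 46 at 1.5-fold, where lower calls numbered 184, and lower calls outnumbered higher ones in 7 of 7 alternatives. No paired analysis was possible because each group had 1 library. The depth gave intervals for single genes of counting error only, and the spread between cultures is unknown.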
